A study of Mus musculus with 2 samples.

Results

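The genes described here encode the machinery that starts transcription in the nucleus. They are the subunits of RNA polymerases I, II and III, the general transcription factors, the TBP family, the TAFs, the Spt proteins and Mediator, chosen by gene symbol: names that begin with Polr1, Polr2, Polr3, Gtf2, Gtf3 or Tbp, with Taf or Med and a number, or with Supt3 to Supt7, cyclin-dependent kinases being left out. Of 11262 genes in the table, 106 met this rule, and their transcripts made up 1.48% of the table's TPM in the second polar body (PB2) and 1.59% in the zygote.

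Mouse C57BL/6 embryos (C57BL/6N in the methods) at the late 1-cell stage, untreated and cultured in KSOM medium after collection from the oviduct, were separated into PB2 and zygote by removing the zona with acid Tyrode's solution and pipetting in trypsin. PB2s were pooled into 1 polyA RNA library and zygotes into another, so there were no replicates, no spread between samples is known, and differences are described without a test. The study asked whether PB2 holds the means to transcribe and stained it for RNA polymerase II and its active form. By labelling newly made RNA, it also reported that transcription likely took place in PB2. The comparison of these transcripts between the libraries bears on the mRNA side of that question only. Values are TPM (a transcript's abundance relative to a fixed library total, adjusted for gene length), which keep no record of read number, so depth is unknown and no counting interval can be given.

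The second polar body is the small sister cell that the fertilised egg casts off as it completes meiosis, and its cytoplasm, like that of the zygote, comes from the egg and carries maternal mRNA made during oocyte growth. RNA polymerase II transcribes protein-coding genes. To start, it needs TFIID (the TATA-binding protein with its associated factors, the TAFs), which recognises the promoter, and then TFIIA, TFIIB, TFIIF, TFIIE and TFIIH, which place the polymerase, open the DNA and phosphorylate the polymerase's tail. Mediator bridges DNA-bound activators to this assembly through its head, middle and tail modules, with a detachable kinase module. Polymerases I and III make ribosomal RNA and small RNAs such as tRNA, use factors of their own, and share several subunits with polymerase II.

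All 12 oocyte and zygote markers were present in both libraries, which cannot check which library is PB2, since both cells come from the egg. The markers went both ways, 7 being higher in PB2 and 5 higher in the zygote. At least 2-fold apart were 4 toward PB2 (33.3%, beside 18.9% of all compared genes) and 1 toward the zygote (8.33%, beside 8.09%). Among the 7, Gdf9, an oocyte-secreted growth factor, had 1196 TPM in the zygote against 3299 TPM in PB2. Of 16 cumulus and granulosa cell markers, 6 were in the table, Cyp19a1 (aromatase) being the highest at 72.2 TPM in the zygote against 70.9 TPM in PB2, and none of the 5 compared was 2-fold apart. Those 5 summed to 88.7 TPM in PB2 and 88 TPM in zygotes, and the sixth, the steroid enzyme Cyp11a1, was at 0.8 TPM in PB2 and listed at 0 in zygotes. The part of cells of other types in the values below was not tested.

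Before the values, the sequences upstream of 4 members past 2-fold are shown. They are a choice among such members, and those furthest toward PB2 (Taf10) and toward the zygote (Taf15) are not shown. Polr2a and Taf3 stood on the PB2 side of a 2-fold difference, and Med6 and Tbpl2 on the zygote side. Each is 120 bases of the strand of the gene, read from RefSeq promoters on GRCm38.p6, and all but that of Polr2a end just before the RefSeq start. The Polr2a window ends 4 bases before the RefSeq start, where the GENCODE gene begins. For Taf3 the window ends at 10048610, whereas the GENCODE gene begins at 10048596. All 4 genes lie on the minus strand, and capitals mark TATAA (the TATA motif) or GGGCGG (the GC box, printed as CCGCCC where it is on the other strand).
Polr2a, chr11:69758638-69758757: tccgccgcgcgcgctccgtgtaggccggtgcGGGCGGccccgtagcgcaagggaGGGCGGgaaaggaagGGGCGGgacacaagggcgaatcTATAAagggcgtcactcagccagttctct
Taf3, chr2:10048610-10048729: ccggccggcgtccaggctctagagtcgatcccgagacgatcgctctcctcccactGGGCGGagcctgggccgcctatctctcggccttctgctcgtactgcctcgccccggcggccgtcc
Med6, chr12:81595009-81595128: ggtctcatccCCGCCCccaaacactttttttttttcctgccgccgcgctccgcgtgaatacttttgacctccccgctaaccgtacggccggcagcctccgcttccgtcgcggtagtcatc
Tbpl2, chr2:24096596-24096715: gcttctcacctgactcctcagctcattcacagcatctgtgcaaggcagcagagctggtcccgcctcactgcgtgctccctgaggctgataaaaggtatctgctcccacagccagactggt

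The Polr2a window held a TATAA beginning 33 bases before the RefSeq start and 3 GC boxes at 93, 70 and 55 bases before it. The window of Taf3 held 1 GC box at 65 bases and that of Med6 1 on the other strand at 110 bases, while the Tbpl2 window held neither motif. The Taf3 window also overlaps the gene C630004M23Rik. Such matches describe the letters of the window and are not evidence of a working site.

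Promoters were found for 92 of the 106 members, and 4 motifs were searched on both strands in the 250 bases before each start. GGGCGG was in 60.9% of the members' promoters and in 57.8% of the 8419 promoters of compared genes. CCGGAAG, the ETS motif, was in 22.8% against 14.3%, TATAA in 19.6% against 12.5%, and CCAAT in 30.4% against 37.0%. The members' promoters had a median GC content of 59.4%, beside 59.6% for the compared genes.

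The rule can take only genes that have a row in the table. Taf9 and Taf7l, paralogs of the members Taf9b and Taf7, have none, so the values below do not show whether the machinery is complete. None of the 106 members was listed at 0 in either library, 76 had at least 10 TPM in PB2 and 72 in the zygote, and the median member had 24.9 TPM in PB2 against 26.6 TPM in the zygote. Among all genes of the table, 52.1% reached 10 TPM in PB2 and 47.6% in the zygote, against 71.7% and 67.9% of the members. Differences below are given as the log2 ratio, log2((PB2 TPM + 1)/(zygote TPM + 1)), over the 104 members with at least 1 TPM in either library. The 2 members left out were Gtf3c4 (0.2 TPM in the zygote, 0.8 TPM in PB2) and Gtf2i (0.1 and 0.4 TPM). Wherever a gene has a pair of values without labels, the zygote comes first and PB2 second, and a signed number in brackets after TPM values is the log2 ratio.

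Of the 104 members compared, 16 (15.4%, beside a background of 18.9% of all compared genes) lay at least 2-fold higher in PB2 and 11 (10.6%, beside 8.09%) at least 2-fold higher in the zygote. Both shares lie near the background, so the counts by themselves set the machinery apart in neither direction. The log2 ratio ran from -2.84 to 2.05, Taf1 being equal, 53 members higher in PB2 and 50 higher in the zygote, while PB2 had the higher level for 6298 of the 10645 compared genes and the zygote for 4262. The median member stood at 0.09 and the median compared gene at 0.21, and all ratios are best read against that 0.21. The split of 16 and 11 became 10 and 17 when ratios were centred on the median gene, 7 and 18 when the trend with transcript GC content was removed, 8 and 15 when the trend with transcript length was removed and 9 and 12 when the trend with coding length was removed. The background moved too, to 13.0% (PB2) and 12.1% (zygote) of all compared genes after centring, 9.50% and 10.5% without the GC trend, 11.9% and 11.8% without the transcript length trend and 11.8% and 11.8% without the coding length trend. A TPM is a proportion of its library, so a lower value cannot tell fewer transcripts of the gene from more of other genes, and fewer cells of a type cannot be told apart from less RNA per cell.

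**Figure D1:**
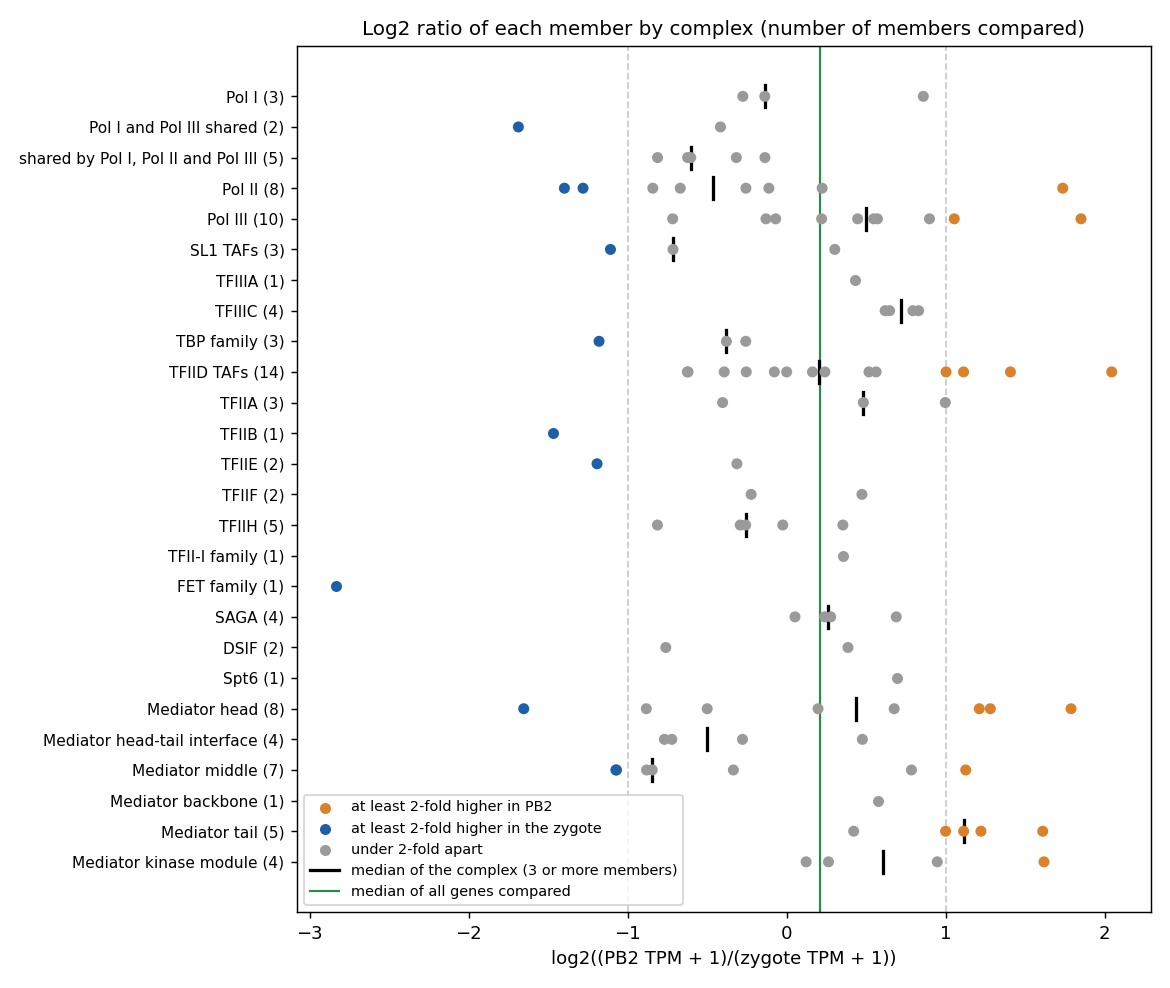
Each point is 1 of the 104 members compared, placed by its log2 ratio (horizontal axis) in the row of its complex, with the number of members compared in brackets; black bars are medians of complexes with 3 or more members, dashed lines mark 2-fold and the green line is the median of all compared genes (0.21). Mediator tail points lie to the right (median 1.11) and points of the polymerase subunits shared by all 3 enzymes lie left of 0 (median -0.60).

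Among the subunits of RNA polymerase II, the catalytic one went one way and most of its partners the other. Polr2a, the largest subunit, which holds much of the catalytic centre and the C-terminal tail, had 1.7 TPM in the zygote against 8.0 TPM in PB2. Its log2 ratio was 1.74, and the plain ratio was 4.71, with 4.54 to 4.88 covering rounding of the deposited values. Its gene lies on chromosome 11 at 69733997 to 69758637 of GRCm38, minus strand. In the zygote, 80.0% of the table's genes had a higher level than Polr2a, and no other polymerase II subunit was as low there.

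Polr2b, the second largest subunit and the other wall of the active centre, had 78.6 TPM in the zygote against 43.4 TPM in PB2, for a log2 ratio of -0.84. Polr2c, which pairs with Polr2j to begin assembly of the enzyme, was the highest member of all in both libraries, at 2359 TPM in the zygote against 2754 TPM in PB2 (log2 ratio 0.22). Polr2j had 287 TPM in the zygote against 180 TPM in PB2, for a log2 ratio of -0.67. The assembly partners thus differed widely in level in both libraries, and exon overlaps with genes on the other strand touch both, since Dok4 shares 18.1% of the exonic bases of Polr2c and Lrwd1 shares 15.9% of those of Polr2j.

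Polr2d and Polr2g form the stalk, a pair that binds the emerging RNA, and both had over 2 times the PB2 level in the zygote. Polr2g had 950.1 TPM in the zygote against 360 TPM in PB2, for a log2 ratio of -1.40. Polr2d had 441 TPM in the zygote against 181 TPM in PB2, for a log2 ratio of -1.28. These were the only polymerase II subunits past 2-fold on the zygote side as computed. Polr2i, a subunit involved in fidelity, was close in the libraries at 28.5 TPM in the zygote against 26.3 TPM in PB2 (-0.11). Polr2m, a protein that associates with the enzyme, had 3.3 TPM in the zygote against 2.6 TPM in PB2 (-0.26).

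The subunits that all 3 polymerases share were each higher in the zygote, by less than 2-fold. Polr2f had 764 TPM in the zygote against 695 TPM in PB2, for a log2 ratio of -0.14. Polr2l had 125 TPM in the zygote against 70.7 TPM in PB2, for a log2 ratio of -0.81. Polr2k had 73.6 and 58.9 TPM in the same order (-0.32), Polr2e 34.1 and 22.1 TPM (-0.60), and Polr2h 31.8 and 20.3 TPM (-0.62). All 5 stayed higher in the zygote after centring, whereas Polr2k turned to 0.07 without the GC trend and Polr2f and Polr2k both turned above 0 without either length trend.

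Of the 13 polymerase II and shared subunits together, 11 were higher in the zygote and Polr2a and Polr2c in PB2, with a median log2 ratio of -0.60. Centring kept the same count, and removing either length trend left 9 higher in the zygote. Without the GC trend the count was again 11, with Polr2c on the zygote side (-0.44) and Polr2k on the PB2 side. Polr2a stayed above 1 under each of these, at 1.30 without the GC trend and 1.41 without the coding length trend. The levels of the 13 subunits spanned 1388-fold in the zygote and 1059-fold in PB2.

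**Figure D2:**
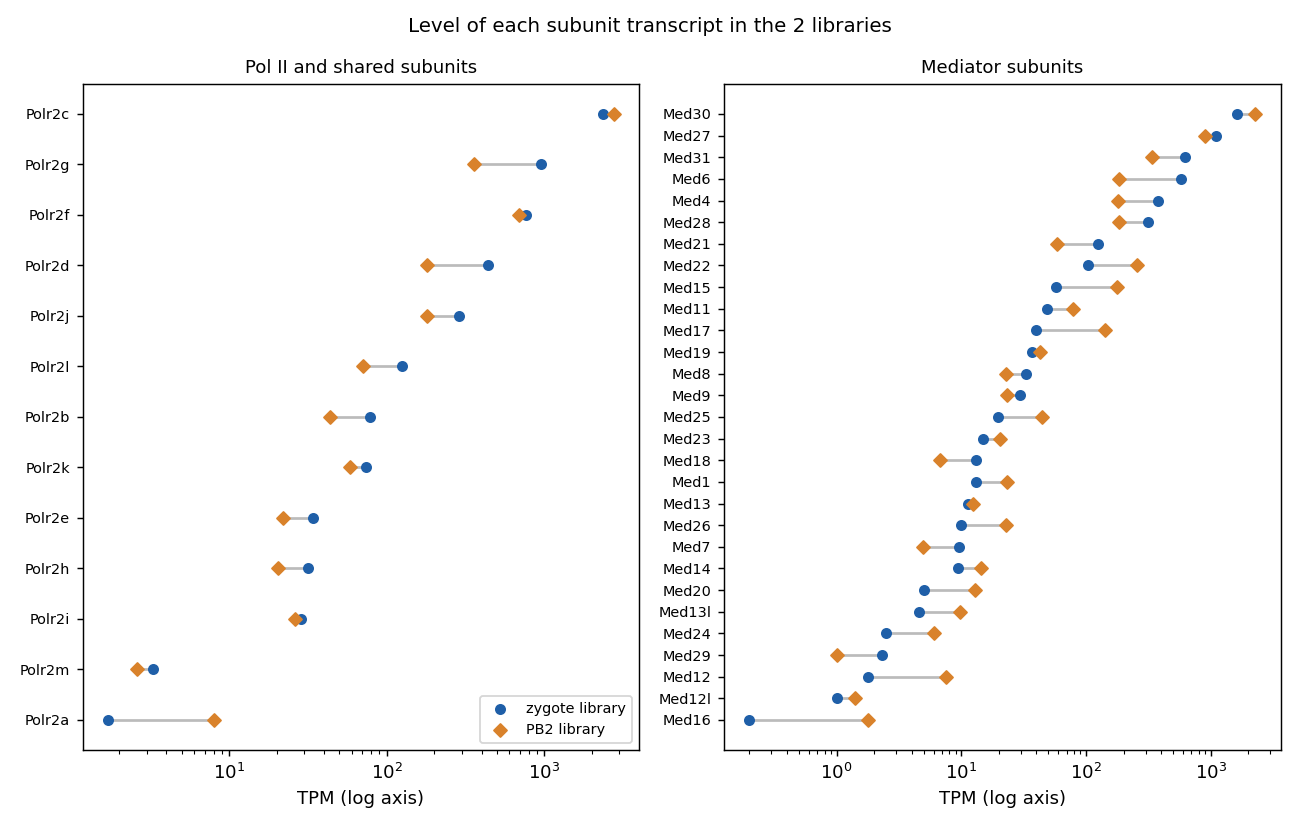
TPM on a log axis for each polymerase II and shared subunit (left) and each Mediator subunit (right), blue circles for the zygote library and orange diamonds for the PB2 library, ordered by the zygote level. On the left, Polr2a at the bottom moves from 1.7 TPM (zygote) to 8.0 TPM (PB2) while most other subunits lie lower in PB2, and on the right the subunits highest in the zygote are mostly lower in PB2, with Med30 the main exception.

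Of the 10 subunits particular to RNA polymerase III, 7 were higher in PB2, a share not far from that of all compared genes given above, and the median log2 ratio was 0.50. Polr3e had 0.3 TPM in the zygote against 1.7 TPM in PB2 (1.05), values at which rounding alone leaves the plain ratio between 4.71 and 7. Polr3k, which takes part in termination, was the highest subunit at 108 TPM in the zygote against 65.3 TPM in PB2 (-0.72).

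The largest subunit Polr3a, the counterpart of Polr2a, had 61.0 TPM in the zygote against 58.1 TPM in PB2, for a log2 ratio of -0.07. Polr3g, the form linked to early embryonic cells, had 7.5 and 8.9 TPM in the zygote and PB2 (0.22), and its paralog Polr3gl, the form common in somatic cells, had 2.5 and 4.2 TPM (0.57). Polr3g was thus the more abundant of the pair in both, by 3 times in the zygote and 2.12 times in PB2. The other members, Polr3b, Polr3c, Polr3d and Polr3f, had log2 ratios from -0.13 to 0.90.

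The 3 compared subunits that polymerase I keeps for itself under the Polr1 name were each under 10 TPM in both cells. Polr1a, its largest subunit, had 1.7 TPM in the zygote against 3.9 TPM in PB2 (0.86), Polr1b had 1.3 and 0.9 TPM (-0.28) and Polr1e had 7.8 and 7.0 TPM (-0.14). Polr1c and Polr1d, an assembly pair used by polymerases I and III, were both higher in the zygote. Polr1c had 7.7 TPM in the zygote against 1.7 TPM in PB2, for a log2 ratio of -1.69, and Polr1d had 70.4 and 52.5 TPM (-0.42).

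Of the SL1 TAFs, which place polymerase I on ribosomal DNA, Taf1b had 107 TPM in the zygote against 48.9 TPM in PB2 (-1.11) and Taf1a had 465 and 283 TPM (-0.71), while Taf1d had 61.1 and 75.6 TPM (0.30). The 4 compared subunits of TFIIIC, the factor that recognises tRNA genes, were all higher in PB2, with log2 ratios from 0.62 to 0.83, although Gtf3c1 turned to -0.07 without the GC trend. Gtf3c6 was the highest of them at 23 TPM in the zygote against 36.6 TPM in PB2 (0.65), and Gtf3c4, named above, was the lowest. Gtf3a, the TFIIIA protein of the 5S RNA gene, had 3.0 and 4.4 TPM (0.43), but Mtif3 on the other strand shares 59.1% of its exonic bases.

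All 3 members of the TBP family were higher in the zygote, and they kept that side under every alternative tried. Tbp, the general TATA-binding protein, had 44.3 TPM in the zygote against 36.9 TPM in PB2, for a log2 ratio of -0.26. Tbpl2, which stands in for it in growing oocytes, had 33.9 TPM in the zygote against 14.4 TPM in PB2, for a log2 ratio of -1.18. Tbpl1, a paralog best known from the testis, had 26.7 and 20.3 TPM (-0.38). Tbp exceeded Tbpl2 by 1.31 times in the zygote and by 2.56 times in PB2.

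The 14 TAFs of TFIID included 4 at least 2-fold higher in PB2 (28.6%, beside 18.9% of all compared genes) and 0 so far toward the zygote (beside 8.09%), and the 4 became 2 after centring and without the GC or either length trend. Taf10, a histone-fold protein used by both TFIID and the SAGA coactivator, had 17.9 TPM in the zygote against 77.0 TPM in PB2, for a log2 ratio of 2.05, the highest of any member. Ilk on the other strand shares 45.9% of its exonic bases and the kit does not mark strand, so reads of the 2 genes cannot be told apart here. Taf3, which reads a histone mark of active promoters, had 87.0 TPM in the zygote against 233 TPM in PB2, for a log2 ratio of 1.41. It is encoded on chromosome 2 at 9914552 to 10048596, minus strand, and stayed past 2-fold under every alternative but the 4-fold threshold.

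Taf5, a scaffold subunit, had 37.7 TPM in the zygote against 82.7 TPM in PB2 (1.11), and Taf4, another scaffold, had 24.2 and 49.5 TPM (1.00). Both were under 2-fold after centring and without the GC or length trends. At the other end, Taf9b had 197 TPM in the zygote against 128 TPM in PB2 (-0.62), and Taf12, the histone-fold partner of Taf4, had 91.2 and 58.8 TPM (-0.62). Taf7 was the most abundant TAF at 513 TPM in the zygote against 486 TPM in PB2 (-0.08), and Taf1, the largest, was at 7.2 TPM in both and the lowest in both. Of the 14 TFIID TAFs, PB2 had the higher level for 8 and the zygote for 5, with a median log2 ratio of 0.20, which centring moved to -0.0080 and removal of the transcript length trend to -0.14.

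Paralogous TAFs differed in how they were divided. Taf4b, the gonad-enriched paralog, had 12.0 TPM in the zygote against 8.9 TPM in PB2 (-0.39), so Taf4 exceeded it by 2.02 times in the zygote and 5.56 times in PB2. Taf5 exceeded Taf5l, its counterpart in SAGA, by 8.98 times in the zygote and 15.6 times in PB2, Taf5l itself having 4.2 and 5.3 TPM (0.28). Taf6 had 9.9 and 15.1 TPM (0.56) and Taf6l, also of SAGA, 5.1 and 6.2 TPM (0.24). In each of these pairs the first-named gene exceeded its paralog by more in PB2 than in the zygote, by a small step for Taf6 over Taf6l (1.94 to 2.44 times).

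Of the 13 subunits of the remaining general factors of polymerase II, 0 were at least 2-fold higher in PB2 (beside 18.9% of all compared genes). In the zygote 2 were so (15.4%, beside 8.09%). Gtf2b, the TFIIB protein that sets the polymerase at the start site, had 439 TPM in the zygote against 158 TPM in PB2, for a log2 ratio of -1.47. Gtf2e2, a TFIIE subunit, had 73.3 and 31.5 TPM (-1.19), and its partner Gtf2e1 had 7.2 and 5.6 TPM (-0.31). Both Gtf2b and Gtf2e2 stayed past 2-fold after centring and without the GC or length trends.

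In TFIIA, the germ-cell form Gtf2a1l stood just under the threshold at 37.6 TPM in the zygote against 76.1 TPM in PB2 (1.00 after rounding). Its general paralog Gtf2a1 had 91.9 and 129 TPM (0.48) and the small subunit Gtf2a2 had 320 and 242 TPM (-0.40). For TFIIF, Gtf2f1 had 74.9 TPM in the zygote against 104 TPM in PB2 (0.47) and Gtf2f2 had 223 and 191 TPM (-0.22). The core TFIIH subunits had a median log2 ratio of -0.26, the highest being Gtf2h1 at 112 and 110 TPM (-0.02) and the lowest Gtf2h4 at 0.8 and 1.3 TPM (0.35). Subunits of 1 factor were thus far from equal in level, and TFIIH spanned 140-fold in the zygote.

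**Figure D3:**
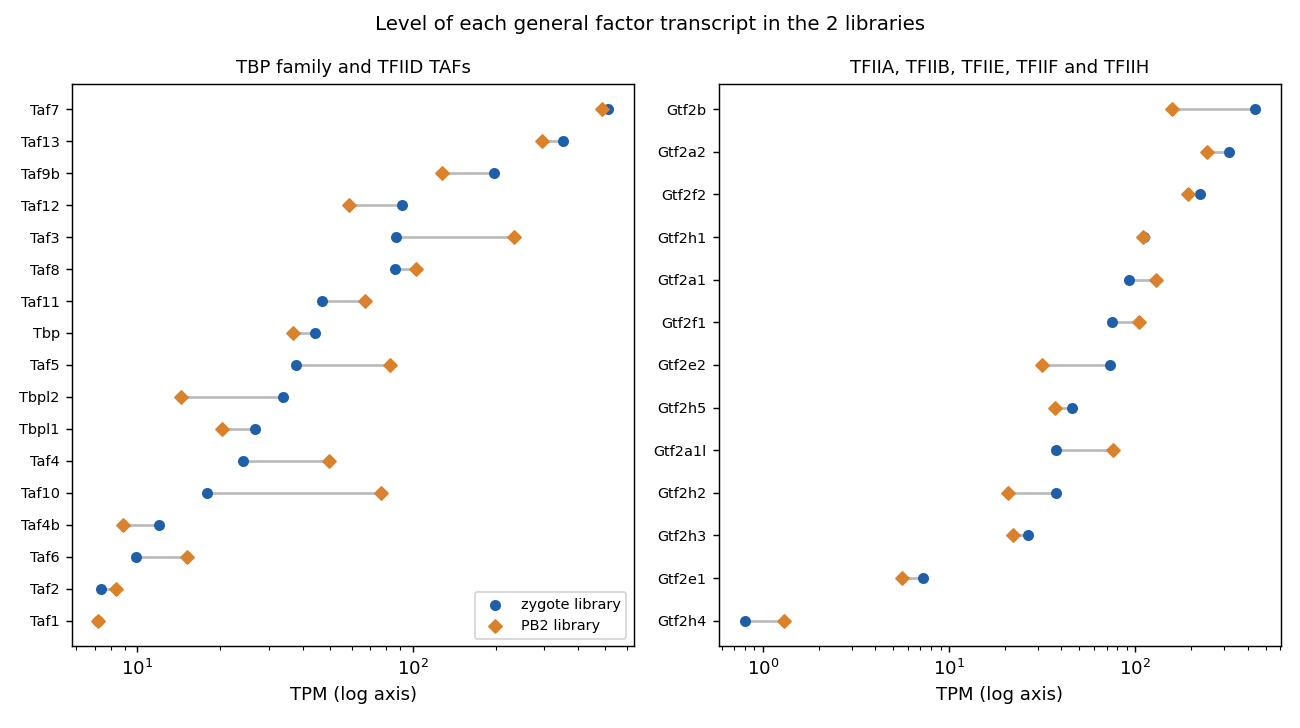
TPM on a log axis for the TBP family and TFIID TAFs (left) and the subunits of TFIIA, TFIIB, TFIIE, TFIIF and TFIIH (right), blue circles for the zygote library and orange diamonds for the PB2 library, ordered by the zygote level. Taf10 and Taf3 lie well to the right in PB2 (77.0 and 233 TPM) and Tbpl2, Gtf2b and Gtf2e2 well to the left (14.4, 158 and 31.5 TPM).

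The member furthest toward the zygote was Taf15, an RNA-binding protein of the FET family that can associate with TFIID. It had 19.7 TPM in the zygote against 1.9 TPM in PB2, for a log2 ratio of -2.84 and a plain ratio of 10.4 in favour of the zygote. Its ratio was -3.05 without the GC trend and -3.18 without the coding length trend. Gtf2ird1, the compared member of the TFII-I family, had 10.9 TPM in the zygote against 14.2 TPM in PB2 (0.35).

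Among the Spt proteins none was 2-fold apart. Supt4a, the small subunit of the elongation factor DSIF, had 175 TPM in the zygote against 103 TPM in PB2 (-0.76), while its large partner Supt5 had 11.4 and 15.2 TPM (0.39). Supt6, a histone chaperone that travels with the elongating polymerase, had 25.9 and 42.6 TPM (0.70). The SAGA members were at low levels, from Taf5l to Supt3 at 9.8 and 10.2 TPM (0.05), with Supt7l at 5.2 and 9.0 TPM (0.69). All 4 were higher in PB2 as computed, but 3 of them were higher in the zygote without the GC trend.

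Mediator contributed the most members past 2-fold, with 9 of its 29 subunits on the PB2 side (31.0%) and 3 on the zygote side (10.3%), beside backgrounds of 18.9% and 8.09%, and a median log2 ratio of 0.42. Centring on the median gene made these counts 6 and 6, and removal of the GC trend 2 and 4, to be read beside the moved backgrounds given above. The modules differed from each other, as the plot of log2 ratios by complex shows. The tail and the 4 kinase module members stood on the PB2 side, the middle module on the zygote side, and the head held subunits at both ends.

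The tail, the part that many activators touch, had 4 of 5 subunits at least 2-fold higher in PB2 and a median of 1.11. Med15, a target of sterol and Smad regulators, had 57.5 TPM in the zygote against 178 TPM in PB2, for a log2 ratio of 1.61. Med25 had 19.8 and 44.0 TPM (1.11), Med16 had 0.2 and 1.8 TPM (1.22) and Med24 had 2.5 and 6.0 TPM (1.00, at the threshold). Med23 had 14.9 and 20.3 TPM (0.42). All 5 stayed higher in PB2 under centring and without the GC or length trends, but the number past 2-fold went from 4 to 2 with centring, to 1 without either length trend and to 0 without the GC trend. The tail subunits had a median GC content of 56.4%, beside 49.1% for all compared genes, and the part of GC content in these ratios was not tested beyond removal of the trend.

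The kinase module includes the kinase Cdk8, whose name lies outside the rule, and can hold Mediator off the polymerase. Med12, which activates the kinase, had 1.8 TPM in the zygote against 7.6 TPM in PB2, for a log2 ratio of 1.62, and it stayed past 2-fold under each trend removal. Its paralog Med12l had 1.0 and 1.4 TPM (0.26), so Med12 exceeded it by 1.8 times in the zygote and 5.43 times in PB2. Med13, which tethers the module, had 11.4 and 12.5 TPM (0.12) and its paralog Med13l had 4.6 and 9.8 TPM (0.95), a pair whose ratio went from 2.48 in the zygote to 1.28 in PB2. All 4 were higher in PB2 as computed, though Med13 passed to the zygote side on centring or without the transcript length trend, and Med13 and Med12l without the coding length trend.

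The head contacts the polymerase. Of its 8 subunits, 3 (37.5%) passed 2-fold toward PB2 and 1 (12.5%) toward the zygote, beside 18.9% and 8.09% of all compared genes. Med17, the central scaffold of the head, had 40.0 TPM in the zygote against 141 TPM in PB2, for a log2 ratio of 1.79, and kept a ratio of 1.69 without the GC trend. Med22 had 104 and 254 TPM (1.28) and Med20 had 5.0 and 12.9 TPM (1.21), but without the GC trend these stood at 0.71 and 0.86, and both were also under 2-fold without the transcript length trend. A pseudogene on the other strand, Kpna2-ps, shares 21.4% of the exonic bases of Med20. Med6, a conserved head subunit on chromosome 12 at 81573557 to 81595008 (minus strand), went the other way, with 578 TPM in the zygote against 183 TPM in PB2, for a log2 ratio of -1.65.

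Med6 and Med17 thus lay at opposite ends of one module and both stayed past 2-fold under centring and each trend removal. The other head subunits, Med8, Med11, Med18 and Med19, had log2 ratios from -0.88 to 0.68.

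The middle module was mostly higher in the zygote, with 5 of 7 subunits on that side and a median of -0.85, a split that held under centring and each trend removal. Med4 had 379 TPM in the zygote against 179 TPM in PB2 (-1.07) and Med21 had 124 and 58.7 TPM (-1.07). Med31 was the highest of the module at 621 and 337 TPM (-0.88), and Med7 the lowest at 9.6 and 4.9 TPM (-0.85). The exceptions were Med26, a docking site for elongation factors, at 9.9 TPM in the zygote against 22.8 TPM in PB2 (1.13), and Med1, the subunit that nuclear receptors bind, at 13.1 and 23.3 TPM (0.79). Med26 was under 2-fold after centring and without the GC trend (0.27) or either length trend, and Med21 was under 2-fold without the GC trend or either length trend. An antisense gene, Gm17435, shares 12.7% of the exonic bases of Med26.

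The most abundant Mediator transcripts belonged to the subunits at the junction of head and tail. Med30 had 1633 TPM in the zygote against 2273 TPM in PB2 (0.48) and Med27 had 1097 and 904 TPM (-0.28). Med28 had 316 and 185 TPM (-0.77), whereas Med29 was the lowest of this group at 2.3 and 1.0 TPM (-0.72). Med14, the backbone that joins the modules, had 9.4 and 14.5 TPM (0.58). In PB2 the levels of the 29 subunits thus ran from 1.0 TPM for Med29 to 2273 TPM for Med30, and in the zygote from 0.2 TPM for Med16 to 1633 TPM for Med30.

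Exons of other genes overlap those of 41 of the 106 members, and 15 share at least 10% of their exonic bases with a single other gene. Of the members past 2-fold, only Taf10, Med20 and Med26 are among these 15. For Polr2i, Taf6, Tbp, Tbpl1, Med7, Med19, Med31 and Med12l the other gene lies on the opposite strand, and for Gtf3c2 on the same strand. Their values may hold reads of that gene. Med21, also past 2-fold, is outside the 15 but shares 5.59% of its exonic bases with Tm7sf3 and 9.88% with the pseudogene Gm6654.

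The length of the coding sequence, which the choice of members did not use, went with the direction of the ratios. Of the 35 members with the longest coding sequences (1764 to 6648 nucleotides), 12 passed 2-fold toward PB2 and 0 toward the zygote, and their median log2 ratio was 0.70. Polr2a, Med12, Taf3 and the tail subunits past 2-fold are among them. Of the 35 with the shortest (201 to 732 nucleotides), 4 were past 2-fold on the PB2 side and 3 on the zygote side, with a median of -0.38. The 34 between had 0 and 8, with a median of -0.24.

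Over all compared genes the same length bounds gave 20.7% and 4.59% past 2-fold (PB2 and zygote) for the long group, 21.2% and 9.04% for the middle and 10.4% and 12.3% for the short, with medians of 0.36, 0.24 and -0.13. The medians thus ran from -0.38 to 0.70 among the members and from -0.13 to 0.36 in the table. Spearman's rho between log2 ratio and coding length was 0.48 over the 104 members and 0.18 over 10606 genes. In the same order it was 0.52 and 0.17 with transcript length, and 0.33 and 0.44 with GC content. Genes within 1 pair of libraries are not independent, these values are descriptions, and the view by coding length was chosen after its values were seen. Without the coding length trend of the whole table, 24 of the 35 long members were higher in PB2 in place of 30, and 5 in place of 12 were past 2-fold. The part of the amplification of full-length cDNA in this pattern was not tested.

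**Figure D4:**
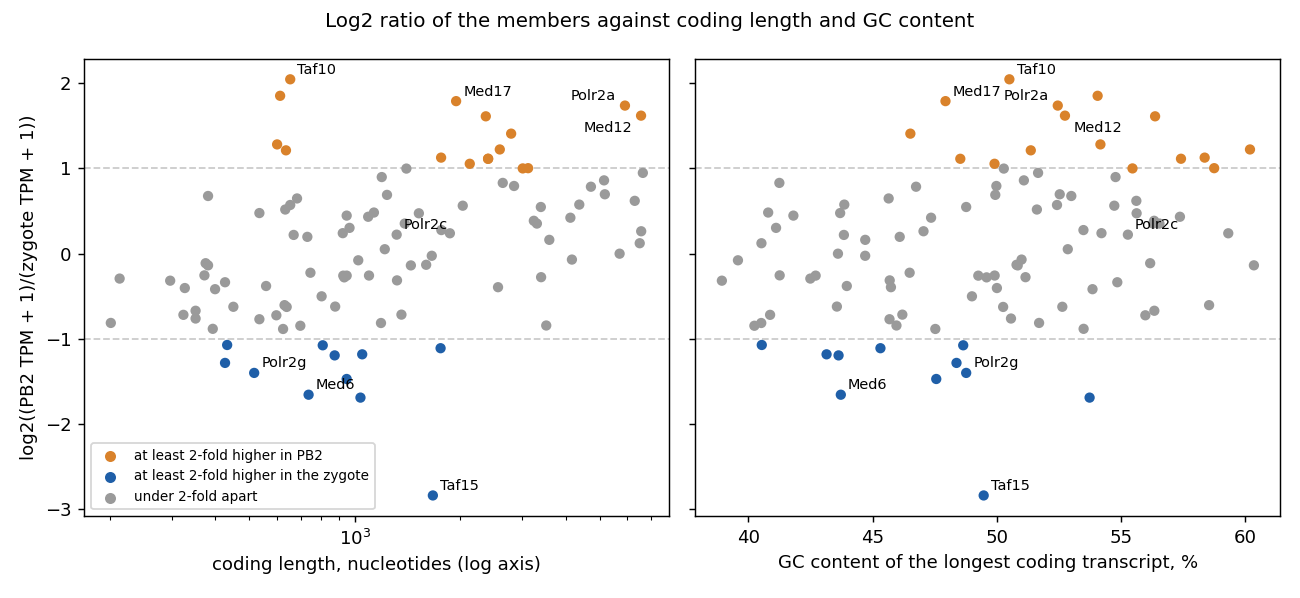
Log2 ratio of each of the 104 members against its coding length in nucleotides on a log axis (left) and against the GC content of its longest coding transcript in percent (right); orange points are at least 2-fold higher in PB2, blue points at least 2-fold higher in the zygote, and dashed lines mark 2-fold. Most orange points lie among long coding sequences, Taf10 being an exception, and no blue point lies among the 35 longest.

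Other genes of the same pathway, taken from 8 lists with 104 names of which 90 were compared, had 18 members at least 2-fold higher in PB2 (20%, near the background of 18.9%) and 3 in the zygote (3.33%, beside 8.09%), with a median log2 ratio of 0.38. These include 4 genes of mitochondrial transcription, of which 1 passed 2-fold on each side. Among factors of pausing and elongation, 7 of 25 (28%) passed 2-fold toward PB2 and none toward the zygote, beside the same backgrounds. Of the subunits of NELF, which holds the polymerase soon after the start, Nelfa was 40.6 TPM in the zygote against 140 TPM in PB2 (1.77), Nelfcd was at 13.3 and 32.9 TPM (1.25) and Nelfb was at 0.9 and 3.7 TPM (1.31). Ell, an elongation factor, had 23 and 98.8 TPM (2.06) and its partner Eaf1 had 2.4 and 7.2 TPM (1.27). Ssrp1 of the FACT histone chaperone had 23.9 and 58.0 TPM (1.25).

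Of 13 compared proteins that work on the tail of Polr2a or on assembly of polymerase II, 3 passed 2-fold toward PB2 (23.1%, beside 18.9% of all compared genes). None did so toward the zygote (beside 8.09%). The 3 were Ctdsp1 at 4.3 TPM in the zygote against 22.6 TPM in PB2 (2.16), Ctdp1 at 3.0 and 9.2 TPM (1.35) and Rprd2 at 2.7 and 8.9 TPM (1.42). Partner subunits that carry names outside the rule had 3 of 17 past 2-fold in PB2 (17.6%, near the background), namely Cd3eap at 6.3 and 26.2 TPM (1.90) and Twistnb at 38.2 and 86.0 TPM (1.15), both subunits of polymerase I, and the TFIIH helicase Ercc2 at 0.6 and 3.2 TPM (1.39). The kinases Cdk7 of TFIIH, at 26.6 and 22.8 TPM (-0.21), and Cdk8 of Mediator, at 18.8 TPM in both, were within 2-fold.

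SAGA partners had 3 of 10 past 2-fold in PB2 (30%) and 1 in the zygote (10%), beside 18.9% and 8.09% of all compared genes. Tada3 had 10.1 and 35.7 TPM in the zygote and PB2 (1.72), the acetyltransferase Kat2a had 1.9 and 6.3 TPM (1.33) and Tada2b had 1.9 and 4.8 TPM (1.00), while Supt20 had 24.3 and 10.2 TPM (-1.18). Of 12 Integrator subunits, 1 was past 2-fold in PB2 (8.33%, beside 18.9% of all compared genes), Ints3 at 3.0 and 8.0 TPM (1.17). The 6 subunits of the PAF1 complex were all within 2-fold, with a median of 0.05. Of the 3 polymerase I initiation factors, Ttf1 was 2-fold higher in the zygote at 1.6 and 0.3 TPM (-1.0), while Rrn3 had 35.3 and 48.6 TPM (0.45) and Ubtf was at 1.4 TPM in both.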

How the data were processed

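PolyA RNA of 1 PB2 library and 1 zygote library was measured after amplification of full-length cDNA with a single-cell kit and Tn5 library preparation, which does not mark strand. Per the labels and the study's methods, reads were aligned with HISAT2 2.0.4, counted with HTSeq 0.6.1p1 and analysed with DESeq2 1.18.1, with CASAVA also named. The submitters' processing notes name OryCun2.0, a rabbit assembly, beside GRCm38, and the identifiers are mouse Ensembl identifiers. The authors deposited TPM values with 1 decimal. The way these were made from the counts is not given in the sources used here, and the read depth is unknown. The table analysed here has 11262 genes summing to 898326 TPM (PB2) and 927063 TPM (zygote), with medians of 11.1 and 8.70 TPM.

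Members were taken by symbol and set into complexes by hand. The members, complexes and lists were chosen with earlier results of these data known. Log2 ratios used a pseudocount of 1 TPM over 10645 genes with at least 1 TPM in either library, and the threshold was 2-fold. DESeq2 could not be repeated, since it needs counts. GC content and length are those of the longest protein-coding transcript. Coding length is that of the longest coding sequence among all protein-coding transcripts of the gene. Coordinates and exon overlaps are those of GENCODE M21 (GRCm38), and promoters those of RefSeq (GRCm38.p6). Loess trends (span 0.3) were subtracted from the ratios, with scripts checked on simulated data. Alternatives were pseudocounts of 0.1 and 0.01, a minimum of 5 TPM, no filter, zygote values scaled by 1.06, removal of the GC or transcript length trend and thresholds of 1.5-fold and 4-fold. After the data had been seen, centring of the ratios on their median and a coding length trend were added. Both values are given for members past 2-fold, polymerase II and shared subunits, the TBP family, paralog pairs and the highest and lowest member of each complex. Of other lists apart from the oocyte and zygote markers, they are given for genes past 2-fold. Other genes given in the text were chosen after their values were seen, and the values of 2 genes are not reported here. Python 3.11.15, pandas 2.3.3, statsmodels 0.14.6 and matplotlib 3.10.9 were used.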

Additional observations from a re-analysis of the deposited data

How the results depend on the processing

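No paired analysis was possible because PB2 and zygote have 1 library each, and for the same reason no replicate could be left out. None of the 27 members past 2-fold changed direction under any alternative that gave it a value, though Med16 and Polr3e have none at a minimum of 5 TPM. Past 2-fold, 27 remained under either smaller pseudocount or no filter, 25 at a minimum of 5 TPM, 25 with the zygote scaled, 21 after centring, 19 without the coding length trend, 17 without the transcript length trend and 16 without the GC trend. Members at least 2-fold higher in PB2 went from 16 to 7 without the GC trend, 8 without the transcript length trend, 9 without the coding length trend and 10 after centring, and were 28 at 1.5-fold and 1 at 4-fold. Members at least 2-fold higher in the zygote went from 11 to 18 without the GC trend and 17 after centring, and were 27 at 1.5-fold and 1 at 4-fold. Of the other transcription genes, the 18 higher in PB2 became 10 without the GC or transcript length trend, 9 without the coding length trend, 36 at 1.5-fold and 2 at 4-fold. Their 3 higher in the zygote became 5 with either smaller pseudocount or without the coding length trend, 7 after centring or without the GC or transcript length trend, 1 at a minimum of 5 TPM or at 4-fold, and 10 at 1.5-fold.

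The members' median of 0.09 turned to -0.012 at a minimum of 5 TPM, -0.12 after centring, -0.23 without the GC trend, -0.092 without the transcript length trend and -0.055 without the coding length trend. Medians by complex that left the range of their members were, without the GC trend, Mediator tail 0.32, Pol I -0.46, SAGA -0.32, TBP family -0.24, TFIIIC 0.61 and the shared subunits -1.07. Without the transcript length trend they were Pol I -0.47, SAGA -0.012 and TFIIIC 0.40, after centring Pol I -0.35, SAGA 0.049, TFIIIC 0.51 and the shared subunits -0.81, and without the coding length trend Pol I -0.42, SAGA -0.10 and TFIIIC 0.43. The cause of these shifts was not tested. Unknown depth limits members under about 2 TPM most, such as Polr2a in the zygote, Med16 and Polr3e.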

Other observations

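Genes of mitochondrial transcription, which use a polymerase unrelated to the nuclear enzymes, were compared in the same way. Polrmt, that polymerase, had 4.3 TPM in the zygote against 11.3 TPM in PB2, for a log2 ratio of 1.22. Tfam, which packages and helps transcribe mitochondrial DNA, had 10 and 5.0 TPM (-0.87), and Tfb2m, the initiation factor, had 46.2 and 45.3 TPM (-0.03). Tefm, the elongation factor, had 4.9 TPM in the zygote and was listed at 0 in PB2.

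Of 15 early genes of zygotic genome activation, 10 were compared. Of these 4 lay 2-fold or more toward the zygote (40%, beside 8.09% of all compared genes) and 1 toward PB2 (10%, beside 18.9%). Zscan4d had 8.6 TPM in the zygote against 0.7 TPM in PB2 (-2.50), Tcstv3 had 158 and 67.6 TPM (-1.21), Tcstv1 had 309 and 151 TPM (-1.03) and Usp17lc had 1.8 and 0.4 TPM (-1.0). Usp17le had 0.5 and 2.7 TPM (1.30). Several of these belong to multigene families of near-identical copies, so how reads were divided among copies is uncertain.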
